A study of Mus musculus with 84 samples.

Results

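Epididymal white adipose tissue (eWAT), the visceral fat pad beside the epididymis, was compared between diet-induced obese (DIO) mice dosed with semaglutide at 100 nmol/kg and mice dosed with vehicle. The comparison rested on 12 of the 84 RNA sequencing libraries of the series, 6 from semaglutide 100 nmol/kg (replicates 37 to 42) and 6 from vehicle (replicates 1 to 6), which were chosen by the tissue and treatment group given in the sample labels. The labels name the semaglutide group Mono_Ago_100 and its molecule a GLP-1R agonist. All mice were male C57BL/6J, were made obese on a 60% fat diet, were 22 weeks old at the start, and were dosed once daily under the skin for 30 days. The groups held 11 mice, of which 6 per tissue have a library, and semaglutide 20 nmol/kg and BI 456906 30 nmol/kg, a dual agonist of the glucagon receptor (GCGR) and the glucagon-like peptide-1 receptor (GLP-1R), are used here to show where the higher semaglutide dose differs. Vehicle mice received no drug, so drug exposure and any change in body weight that came with it cannot be told apart in this comparison.

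Semaglutide is a long-acting GLP-1R agonist that lowers food intake mainly through receptors in the brain. White adipocytes take up fatty acids, make them from glucose (lipogenesis), store them as triglyceride and release them by lipolysis, and they secrete leptin in proportion to their fat stores. In obese mice the epididymal depot also holds many macrophages, including lipid-associated macrophages that surround dying adipocytes. In bulk tissue a lower level of a cell type's transcripts can mean fewer cells of that type or less RNA per cell, and these cannot be told apart.

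Before expression was compared, the libraries were checked for RNA of other tissues. Levels are given in TPM, a unit that corrects transcript counts for length and library depth. The summed TPM of 20 hepatocyte markers ran from 1364 to 12958 in vehicle and from 986 to 3584 in semaglutide. On the log2 scale the mean of this sum was 1.28 lower in semaglutide (exact two-sided permutation test over 924 arrangements, p = 0.0303). The p was 0.0563 without vehicle replicate 2, which holds the highest sum, and 0.0584 and 0.0519 without semaglutide replicates 40 and 41. Genes with a mean liver level of at least 1 TPM and at least 10 times their median level in eWAT were set aside. This rule did not rest on the permutation test, and 19 of the 20 markers are among the genes it set aside. The remaining marker is part of the sum too, so the sum is not a measure of liver RNA alone, here or as a covariate. The median log2 fold change of the 20 markers was -3.26. Alb alone, as log2(TPM + 1), had means of 9.04 in vehicle and 5.65 in semaglutide (exact permutation test, p = 0.0584). The genes set aside were 684 of the 18536 genes tested, with a median log2 fold change of -2.01, and 242 of them passed the thresholds below as lower and 0 as higher. The remaining 17852 genes are described here.

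**Figure D1:**
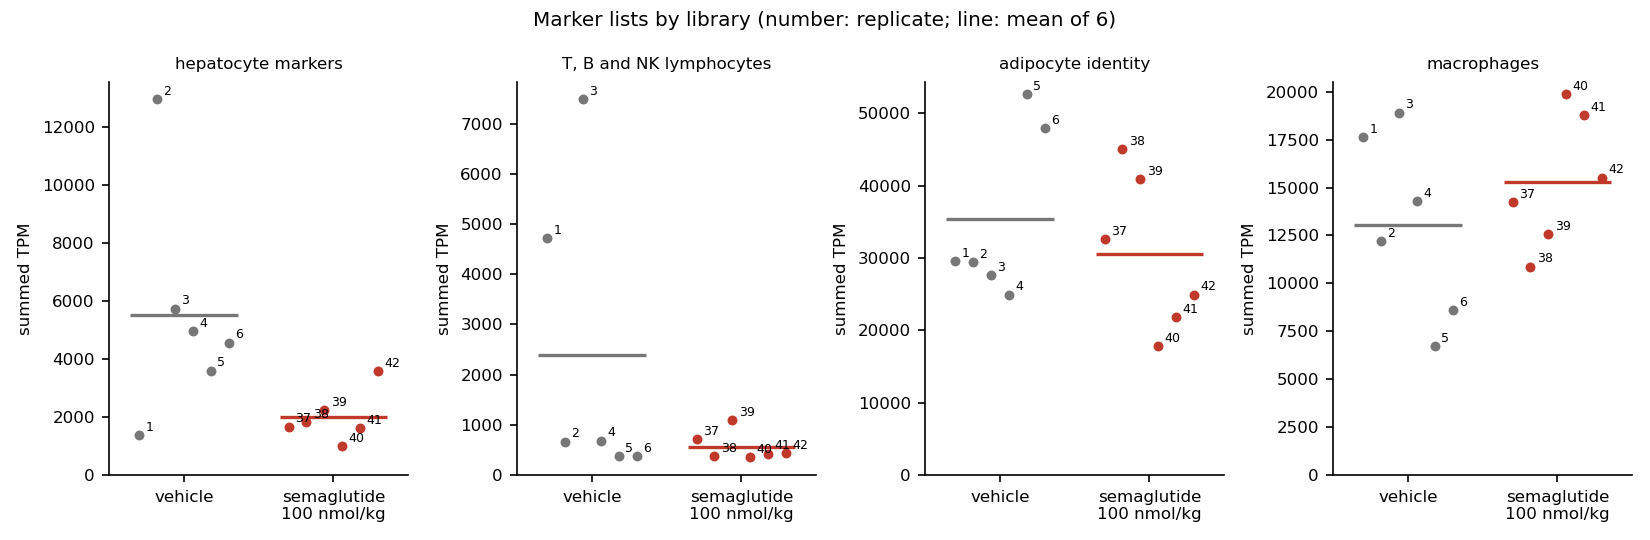
Summed TPM (linear axes from 0) of 4 marker lists in each of the 12 eWAT libraries, with the replicate number beside each point and a line at the mean of 6. Vehicle replicate 2 is highest for hepatocyte markers at 12958, vehicle replicates 1 and 3 for lymphocyte markers at 4723 and 7482, and vehicle replicates 5 and 6 for adipocyte markers at 52660 and 47951.

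As a check of the tissue label, 20 adipocyte identity genes summed to between 24937 and 52660 TPM in vehicle and between 17869 and 45063 TPM in semaglutide, whereas 12 markers of the epididymis epithelium summed to at most 0.68 TPM in any of the 12 libraries. Some libraries stood apart within a group. In vehicle, replicates 1 and 3 held 4723 and 7482 TPM of T, B and NK lymphocyte markers against 376 to 686 TPM in the other 4. Replicates 5 and 6 had the highest adipocyte sums and the lowest macrophage sums (6709 and 8619 TPM). In semaglutide, replicate 40 had the lowest adipocyte sum (17869) and the highest macrophage sum (19875). Results below are therefore given again without vehicle replicates 1 and 3 and without vehicle replicates 5 and 6 where that ends a call. The vehicle libraries held 40313670 to 49292129 reads assigned to genes and the semaglutide libraries 37573004 to 49172119.

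At a false discovery rate (FDR) of at most 0.05 (limma/voom, Benjamini-Hochberg over all 18536 genes), 1473 genes were lower (8.25%) and 1014 higher (5.68%) than in vehicle. Below, rose and fell are said of genes that passed this FDR, and called of those that also changed by at least 1 on the log2 scale. Counts of falls and rises in a gene list are to be read against 8.25% and 5.68%. There were 395 called lower (2.21%) and 129 called higher (0.723%), with median log2 fold changes of -1.44 and 1.31, and 5024 genes (28.1%) had an unadjusted p under 0.05. The falls were also the larger changes, with 100 genes below -2 against 8 above 2. The 6 TPM values of semaglutide lay wholly below the 6 of vehicle for 155 of the genes called lower and wholly above for 29 of those called higher, and over all genes this was so for 395 (2.21%) and 220 (1.23%). Many called genes were scarce, since neither group mean reached 1 TPM for 122 of the genes called lower and 65 of those called higher. With the summed hepatocyte markers of each library as a covariate, 252 genes were called lower and 249 higher, so that 49.7% of the called genes were higher, against 24.6% without the covariate. Without vehicle replicate 1 the genes called higher were 81, and without semaglutide replicate 38 they were 206.

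The 12 largest falls by log2 fold change included a peptide hormone receptor, a pair of imprinted genes and an enzyme of diacylglycerol synthesis. Oxtr, the oxytocin receptor (chr6:112473683-112489943, minus strand), lay at 31.8 to 51 TPM (median 38.6) in vehicle and at 0.46 to 5.74 TPM (median 2.01) in semaglutide, so that the groups did not overlap (log2 fold change -4.54 ± 0.54 SE, FDR 1.97e-06). Mest, a paternally expressed imprinted gene known to follow fat mass expansion (chr6:30723547-30748465, plus strand), lay at 174 to 498 TPM (median 247) in vehicle and 6.86 to 87.8 TPM (median 17.9) in semaglutide (log2 fold change -3.93 ± 0.61 SE, FDR 4.93e-05). Peg10, another paternally expressed imprinted gene (chr6:4747306-4760517, plus strand), lay at 11.8 to 34.1 TPM (median 15.9) and 1.03 to 4.65 TPM (median 1.88), a log2 fold change of -3.14 ± 0.42 (SE, FDR 1.08e-05). For these 3 genes every semaglutide library was below every vehicle library, as the rule that chose them required.

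The other genes among the 12 largest falls had low to moderate levels in vehicle. Tph2, the neuronal tryptophan hydroxylase of serotonin synthesis, fell from a median of 11.7 TPM (range 4.55 to 22.1) in vehicle to a median of 0.715 TPM (range 0.13 to 1.67) in semaglutide (log2 fold change -4.36 ± 0.72 SE, FDR 9.6e-05). Slc5a7, the high-affinity choline transporter, fell from a median of 17 TPM (range 8.15 to 24.6) in vehicle to a median of 1.35 TPM (range 0.34 to 3.6) in semaglutide (log2 fold change -3.74 ± 0.51 SE, FDR 1.24e-05). Mogat2, a monoacylglycerol acyltransferase that makes diacylglycerol, fell from a median of 5.4 TPM (range 3.51 to 9.87) in vehicle to a median of 0.635 TPM (range 0.39 to 1.66) in semaglutide (log2 fold change -3.28 ± 0.49 SE, FDR 2.97e-05). These 3 did not overlap between groups, by the rule that chose them. The others described here were Gas2l2, Lipf, Ncan, Tekt1 and Atp1a4, whose log2 fold changes ran from -4.39 for Gas2l2 to -2.86 for Atp1a4. Lipf encodes gastric lipase, Ncan the proteoglycan neurocan, Tekt1 a ciliary tektin and Atp1a4 a sodium pump subunit known from sperm, and in vehicle their medians lay between 0.845 TPM for Tekt1 and 4.33 TPM for Lipf.

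The largest rises were smaller. Fkbp5, a co-chaperone of the glucocorticoid receptor that glucocorticoids induce, lay at 27.2 to 64 TPM (median 33.8) in vehicle and 68.6 to 188 TPM (median 105) in semaglutide (log2 fold change 1.59 ± 0.41 SE, FDR 0.00831). Zbtb16, a zinc finger transcription factor that glucocorticoids also induce, lay at 15.2 to 29 TPM (median 18.3) and 29.6 to 83.8 TPM (median 62.1), a log2 fold change of 1.53 ± 0.42 (SE, FDR 0.0131). Neither gene's groups overlapped, as the rule that chose them required, although vehicle replicate 6 was high for Fkbp5 within its group. Of genes known from macrophages, Fcna, which encodes a secreted ficolin, rose from a median of 49.1 TPM (range 21.6 to 70.6) in vehicle to a median of 101 TPM (range 92 to 123) in semaglutide (log2 fold change 1.27 ± 0.25 SE, FDR 0.000823). Ms4a4a, a membrane protein of macrophages, rose from a median of 31.4 TPM (range 13.7 to 39.4) in vehicle to a median of 91.2 TPM (range 43.8 to 132) in semaglutide (log2 fold change 1.58 ± 0.30 SE, FDR 0.00056). Clec4d, a C-type lectin of myeloid cells, lay at 16.7 to 99.7 TPM (median 77.8) in vehicle and 104 to 220.3 TPM (median 140.3) in semaglutide and barely passed (log2 fold change 1.45 ± 0.50 SE, FDR 0.0463). The FDR of Clec4d was 0.0601 to 0.145 without any one of semaglutide replicates 37, 39, 40, 41 and 42 or vehicle replicates 5 and 6, and 0.358 without vehicle replicates 5 and 6 together, 0.0634 in a fit of only the 12 libraries compared and 0.363 with the hepatocyte covariate.

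Isl1, a homeobox transcription factor, had the largest of these 12 rises, from a median of 0.53 TPM (range 0.01 to 0.72) to a median of 2.11 TPM (range 0.93 to 3.19), a log2 fold change of 2.5 ± 0.71 (SE, FDR 0.0146). Its level was low, and its FDR was 0.063 without vehicle replicate 6 and 0.0524 without vehicle replicates 1 and 3, 0.0776 without vehicle replicates 5 and 6 and 0.0905 in a fit of only the 12 libraries. Slc10a6, a transporter of steroid sulfates, rose from a median of 4.68 TPM (range 4.26 to 6.08) in vehicle to a median of 11.6 TPM (range 10.3 to 22.2) in semaglutide (log2 fold change 1.39 ± 0.28 SE, FDR 0.000805). Net1, a guanine exchange factor for RhoA, rose from a median of 55.4 TPM (range 33.6 to 69.8) in vehicle to a median of 119 TPM (range 77.5 to 215) in semaglutide (log2 fold change 1.16 ± 0.26 SE, FDR 0.00272). The rises of Eva1c, Olfr1033, Card14 and Lypd1 had log2 fold changes of 1.69, 1.28, 1.22 and 1.16. Lypd1 had an FDR of 0.0517 without vehicle replicates 5 and 6. The exons of Mest, Card14 and Lypd1 overlap those of Copg2, Sgsh and Gpr39 on the other strand over 23.1%, 20.7% and 17.1% of their exon bases, and whether the counting used strand is not given in the sources used here. In vehicle, mean levels were 311 TPM for Mest against 24.6 for Copg2 and 2.05 for Lypd1 against 1.24 for Gpr39. Card14 was at only 0.435 TPM against 18.5 for Sgsh, and the part of Sgsh reads in its level was not tested.

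**Figure D2:**
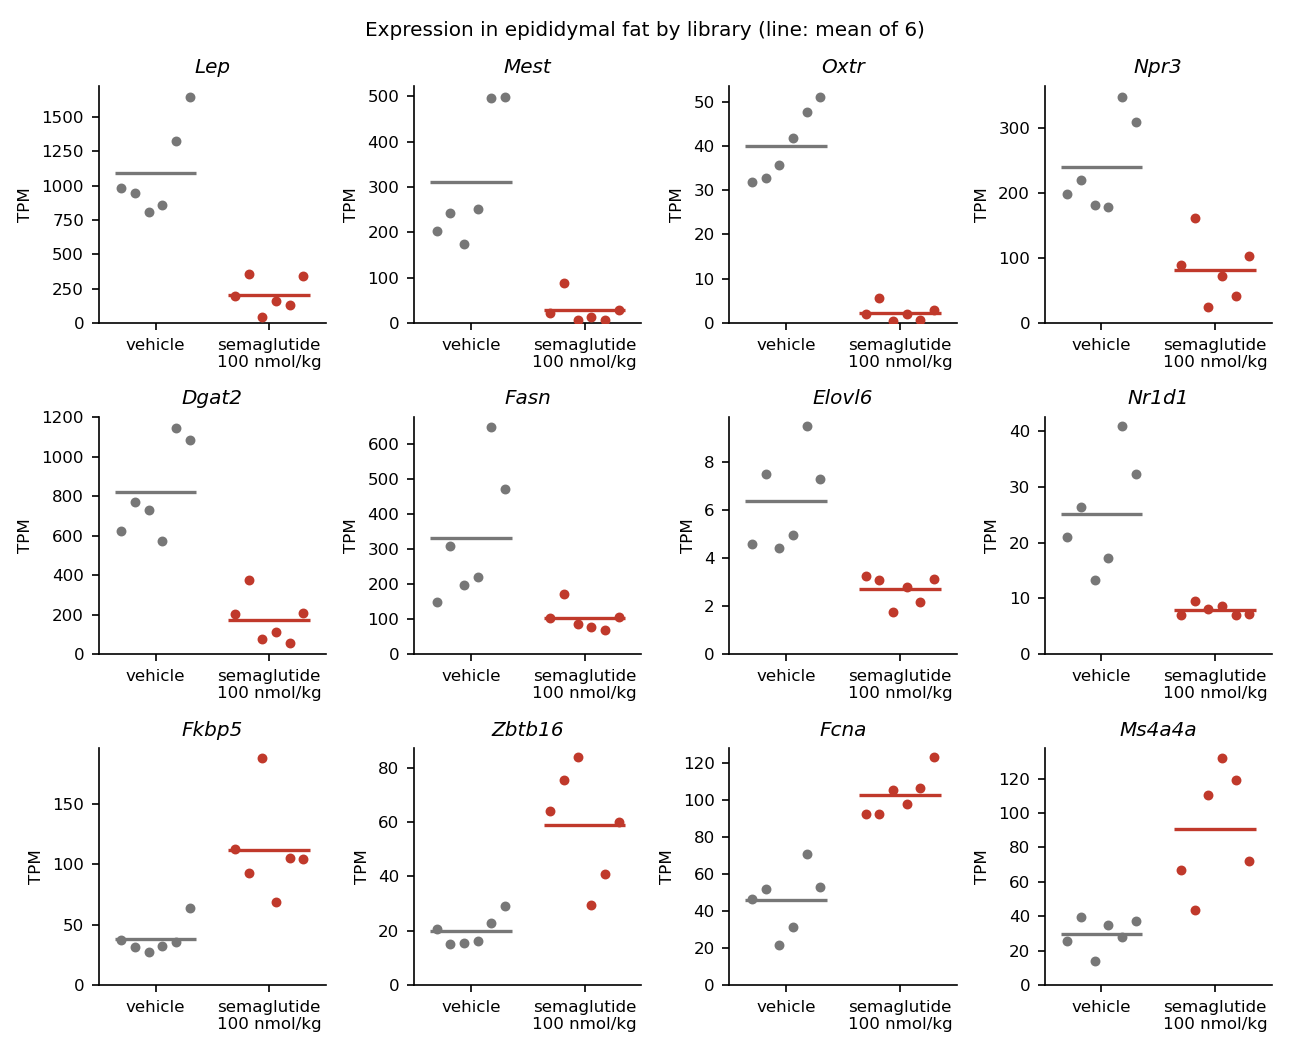
TPM (linear axes from 0) of 12 genes in each of the 6 vehicle and 6 semaglutide 100 nmol/kg eWAT libraries, with a line at the mean of 6. The groups do not overlap for any of the 12 except Fasn, where semaglutide replicate 38 at 172 TPM lies above the lowest vehicle library at 148 TPM. Oxtr, Mest, Fkbp5, Zbtb16, Fcna and Ms4a4a were chosen by a rule that required no overlap.

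Lep, Npr3 and Bmp3 were among the adipokines and fat mass markers that fell. Of 20 in this list, 6 fell, 0 rose and 14 did not pass (median log2 fold change -0.40, against 0.02 over the 17852 genes not set aside). Lep, which encodes leptin (chr6:29060220-29073877, plus strand), lay at 810.0 to 1646 TPM (median 965) in vehicle and 43.5 to 356 TPM (median 177) in semaglutide (log2 fold change -2.65 ± 0.42 SE, FDR 5.26e-05). The highest semaglutide library was below the lowest vehicle library. Npr3, the clearance receptor for natriuretic peptides, lay at 178 to 348 TPM (median 209) and 24.4 to 162 TPM (median 80.8), also without overlap (log2 fold change -1.73 ± 0.35 SE, FDR 0.000859). Bmp3, a secreted growth factor of the BMP family, lay at 20.4 to 54 TPM (median 28) and 2.82 to 20.9 TPM (median 11) and overlapped slightly (log2 fold change -1.75 ± 0.35 SE, FDR 0.000919). Adipoq, which encodes adiponectin, lay at 1319.9 to 3169 TPM (median 1592) and 780.2 to 2246 TPM (median 1465) and did not pass (log2 fold change -0.42 ± 0.28 SE, FDR 0.334). The 6 falls were 4 without vehicle replicates 5 and 6, where the median of the list was -0.07.

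Of 20 adipocyte identity genes, 4 fell, 0 rose and 16 did not pass (median -0.45), where 8.25% of all genes fell. These were Plin1, which coats the lipid droplet, Slc2a4, the insulin-responsive glucose transporter GLUT4, Trarg1, a regulator of GLUT4 trafficking, and Acsl1, which activates long-chain fatty acids. Plin1 lay at 689 to 1384 TPM (median 845) in vehicle and 273 to 965 TPM (median 489) in semaglutide (log2 fold change -0.92 ± 0.28 SE, FDR 0.0224), and Slc2a4 at 42.1 to 95.7 TPM (median 56) and 20.2 to 60.2 TPM (median 35), a log2 fold change of -0.81 ± 0.24 (SE, FDR 0.022). Both overlapped between groups. None of the 4 falls held throughout, and the count was 0 without semaglutide replicate 40 or 41 or vehicle replicate 5 or 6 and 2 without semaglutide replicate 42. The count was also 0 in a fit of only the 12 libraries, and 0 with the hepatocyte marker sum as a covariate, where the median of the list was -0.13. Without vehicle replicates 5 and 6 the FDRs of Plin1, Slc2a4, Trarg1 and Acsl1 were 0.208, 0.231, 0.363 and 0.232. Pparg, the master regulator of adipocyte differentiation, lay at 73.3 to 109 TPM (median 76.2) in vehicle and 59.7 to 124 TPM (median 79) in semaglutide (log2 fold change 0.02 ± 0.19 SE, FDR 0.953). The adipocyte marker sums above include the 4 genes that fell, and had medians of 29543 TPM in vehicle and 28761 TPM in semaglutide. The part of these sums in the results on adipocyte genes was not tested.

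Lipogenesis was the list with the largest share of falls. Of 18 members, 11 fell (Mlxipl, Acly, Acss2, Fasn, Scd2, Elovl5, Elovl6, Me1, Slc25a1, Pnpla3 and G6pdx) and 0 rose (median -0.60), where 8.25% of all genes fell. Fasn, the fatty acid synthase, lay at 148 to 648 TPM (median 264) in vehicle and 68 to 172 TPM (median 93.7) in semaglutide (log2 fold change -1.61 ± 0.34 SE, FDR 0.00134). Elovl6, which elongates palmitate to stearate, lay at 4.39 to 9.47 TPM (median 6.11) and 1.75 to 3.25 TPM (median 2.92), a log2 fold change of -1.23 ± 0.21 (SE, FDR 0.000137). Scd2, a stearoyl-CoA desaturase, lay at 32.7 to 107 TPM (median 56) and 13.2 to 26.1 TPM (median 20.9), a log2 fold change of -1.57 ± 0.26 (SE, FDR 9.84e-05). The groups of Elovl6 and Scd2 did not overlap. Pnpla3, a lipid droplet protein induced by feeding, fell from a median of 21.1 TPM (range 13.8 to 24.9) in vehicle to a median of 5.01 TPM (range 2.23 to 10.8) in semaglutide (log2 fold change -1.87 ± 0.31 SE, FDR 0.000108), and Me1, which supplies NADPH for lipogenesis, from a median of 125 TPM (range 112 to 204) to a median of 69.6 TPM (range 41.7 to 109), a log2 fold change of -1.07 ± 0.20 (SE, FDR 0.000386). Neither overlapped between groups. Scd1, the main desaturase of fat, lay at 3042 to 10721 TPM (median 4611) in vehicle and 2000.0 to 6206 TPM (median 3291) in semaglutide and did not pass (log2 fold change -0.63 ± 0.31 SE, FDR 0.16). The 11 falls were 10 to 12 on leaving out single libraries, 11 without vehicle replicates 1 and 3, 8 without vehicle replicates 5 and 6 and 8 with the hepatocyte covariate.

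**Figure D3:**
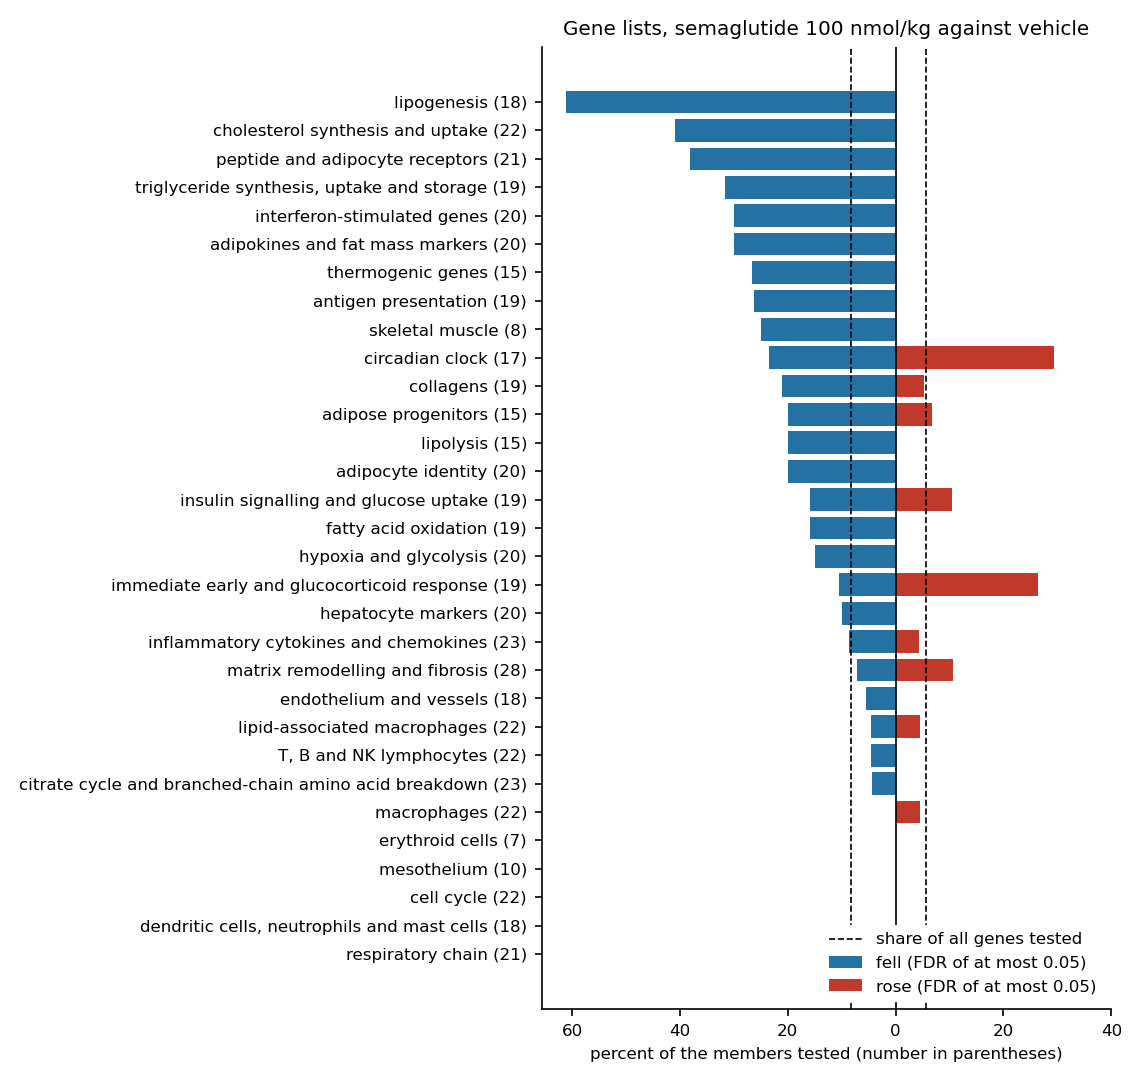
Percent of the tested members of each of 31 gene lists that rose (bars to the right) or fell (bars to the left) in eWAT at semaglutide 100 nmol/kg against vehicle, with the number of members in parentheses and dashed lines at the shares over all genes, 5.68% and 8.25%. Lipogenesis has the longest bar to the left with 11 of 18, and circadian clock the longest to the right with 5 of 17.

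Cholesterol synthesis and uptake gave 9 falls and 0 rises among 22 members (median -0.38). The falls were Hmgcs1, Mvk, Idi1, Fdps, Lss, Nsdhl, Hsd17b7, Sc5d and Insig1, of which the first 8 are enzymes of the pathway and Insig1 retains the sterol-sensing SCAP-SREBP complex in the endoplasmic reticulum. Nsdhl lay at 15.5 to 30.3 TPM (median 18.8) in vehicle and 10.5 to 14.1 TPM (median 11.3) in semaglutide (log2 fold change -0.78 ± 0.13 SE, FDR 9.84e-05), and Sc5d at 31.5 to 57.6 TPM (median 38.7) and 13.7 to 28.5 TPM (median 18.5), a log2 fold change of -1.07 ± 0.19 (SE, FDR 0.000165), both without overlap. Hmgcs1, the synthase that feeds the mevalonate pathway, lay at 51.8 to 79.3 TPM (median 63) and 27.6 to 63.3 TPM (median 34.4), overlapping through semaglutide replicate 38 (log2 fold change -0.77 ± 0.16 SE, FDR 0.00142). Lss, lanosterol synthase, lay at 8.82 to 15 TPM (median 9.97) and 4.85 to 10.8 TPM (median 7.54), a log2 fold change of -0.58 ± 0.12 (SE, FDR 0.00099). The falls were 4 without vehicle replicates 5 and 6, 5 in a fit of only the 12 libraries and 5 with the hepatocyte covariate.

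Triglyceride synthesis, uptake and storage gave 6 falls and 0 rises among 19 members (median -0.31), and 4 falls and 1 rise without vehicle replicates 5 and 6. Dgat2, which makes triglyceride from diacylglycerol (chr7:99153658-99182719, minus strand), lay at 574 to 1147 TPM (median 751) in vehicle and 58 to 374 TPM (median 157) in semaglutide, with no overlap (log2 fold change -2.48 ± 0.38 SE, FDR 3.71e-05). Agpat2, which makes phosphatidic acid, lay at 107 to 206 TPM (median 144) and 48.5 to 120.0 TPM (median 75.4), a log2 fold change of -1.05 ± 0.19 (SE, FDR 0.000208). Lpl, the lipase that frees fatty acids from circulating lipoproteins, lay at 2740.4 to 3708 TPM (median 2888) and 1679 to 2449 TPM (median 2183), a small change without overlap (log2 fold change -0.48 ± 0.09 SE, FDR 0.000216). The other 3 falls were Mogat2, Plin1 and Angptl4.

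Of 15 genes in the lipolysis list, 3 fell and 0 rose (median -0.06), where 8.25% of all genes fell. The list holds an inhibitor and a glycerol-3-phosphate enzyme as well as lipases, so its count is not one of lipolytic enzymes alone. Gpd1, the glycerol-3-phosphate dehydrogenase, fell from a median of 345 TPM (range 297 to 546) in vehicle to a median of 169 TPM (range 129 to 299.8) in semaglutide (log2 fold change -1.08 ± 0.18 SE, FDR 0.000112). Mgll, which cleaves the last fatty acid from glycerol, fell from a median of 508 TPM (range 471 to 861) in vehicle to a median of 331 TPM (range 229 to 534) in semaglutide (log2 fold change -0.8 ± 0.20 SE, FDR 0.00643). G0s2, an inhibitor of adipose triglyceride lipase, fell from a median of 280.0 TPM (range 189 to 369.7) in vehicle to a median of 137 TPM (range 107 to 266) in semaglutide (log2 fold change -0.89 ± 0.24 SE, FDR 0.0112). The FDRs of Mgll and G0s2 were 0.125 and 0.133 without vehicle replicates 5 and 6. Lipe, which encodes hormone-sensitive lipase, lay at 523 to 1127 TPM (median 631) in vehicle and 316 to 858 TPM (median 503) in semaglutide and did not pass (log2 fold change -0.53 ± 0.25 SE, FDR 0.156).

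Of 19 fatty acid oxidation genes, 3 fell and 0 rose (median -0.19), where 8.25% of all genes fell and 5.68% rose. Acaa2, the mitochondrial thiolase, fell from a median of 217 TPM (range 185 to 241) in vehicle to a median of 161 TPM (range 139 to 179.8) in semaglutide without overlap (log2 fold change -0.4 ± 0.09 SE, FDR 0.00212), and its FDR was 0.0593 without vehicle replicates 5 and 6. Acadm and Etfdh had log2 fold changes of -0.53 and -0.3. The count was 1 without semaglutide replicate 40 or 41 or vehicle replicate 5 or 6, 5 without semaglutide replicate 38 and 0 without vehicle replicates 5 and 6 or with the hepatocyte covariate. None of 21 respiratory chain genes passed (median -0.03).

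Of 15 thermogenic genes, 4 fell and 0 rose (median -0.27), namely Otop1, Kcnk3, Cox7a1 and Letm1, where 8.25% of all genes fell. Otop1, which encodes a proton channel, lay at 4.15 to 6.34 TPM (median 4.75) in vehicle and 0.49 to 2.04 TPM (median 0.915) in semaglutide, without overlap (log2 fold change -2.3 ± 0.35 SE, FDR 3.92e-05). Kcnk3, a potassium channel of adipocytes, fell from a median of 12.3 TPM (range 9.64 to 23.4) in vehicle to a median of 6.68 TPM (range 4.22 to 12.3) in semaglutide (log2 fold change -1.03 ± 0.27 SE, FDR 0.00817), and its FDR was 0.111 without vehicle replicates 5 and 6. The falls were 2 without semaglutide replicate 40 or 41 or vehicle replicate 5 or 6, and 1 without both of the latter. Ucp1, the uncoupling protein of brown fat, was at or near 0, at 0.03 to 0.48 TPM (median 0.15) in vehicle and 0 to 0.41 TPM (median 0.12) in semaglutide, and did not pass (FDR 0.728).

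Glp1r, the receptor that semaglutide binds, was at most 0.09 TPM in any of the 12 libraries and too scarce to test. Gcgr belongs to the set-aside liver genes, with levels of 1.61 to 19 TPM (median 7.67) in vehicle and 1.19 to 4.79 TPM (median 3.4) in semaglutide. Of 21 peptide and adipocyte receptors counted, 8 fell, 0 rose and 13 did not pass (median -0.48). The falls were Gipr, Glp2r, Mc2r, Mrap, Npr3, Adora1, Ptger3 and Sucnr1. Gipr, the receptor of the incretin GIP, lay at 5.45 to 11.6 TPM (median 7.45) and 2.53 to 7.68 TPM (median 3.4) and overlapped through semaglutide replicate 38 (log2 fold change -1.08 ± 0.25 SE, FDR 0.00371). Its FDR was 0.0579 without vehicle replicates 5 and 6. Ptger3 and Adora1 encode the prostaglandin E2 and adenosine receptors through which lipolysis is restrained. Ptger3 lay at 19.2 to 43 TPM (median 28.3) and 5.62 to 18.8 TPM (median 8.71) without overlap (log2 fold change -1.66 ± 0.26 SE, FDR 4.93e-05), and Adora1 at 18.4 to 45.7 TPM (median 25) and 6.25 to 20.7 TPM (median 9.21) with a small overlap (log2 fold change -1.5 ± 0.26 SE, FDR 0.000168). Glp2r, the receptor of glucagon-like peptide-2, was scarce, at 0.3 to 0.71 TPM (median 0.385) in vehicle and 0.13 to 0.2 TPM (median 0.19) in semaglutide (log2 fold change -1.23 ± 0.19 SE, FDR 4.75e-05). The 8 falls were 5 without vehicle replicates 5 and 6 and 5 with the hepatocyte covariate, where Gipr had an FDR of 0.0652.

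Insulin signalling and glucose uptake gave 2 rises and 3 falls among 19 members (median 0.21), where 5.68% of all genes rose and 8.25% fell. Igf1r and Trib3, an insulin-like growth factor receptor and a pseudokinase that inhibits AKT, rose by 0.27 and 0.38 on the log2 scale. Grb14, an adaptor that inhibits the insulin receptor, fell from a median of 14.2 TPM (range 12.5 to 17.8) in vehicle to a median of 7.92 TPM (range 4.63 to 12.6) in semaglutide (log2 fold change -0.92 ± 0.25 SE, FDR 0.0119). Slc2a4 is given above. The rises were 0 without semaglutide replicate 39 or vehicle replicate 1 or 3 and 1 without semaglutide replicate 40, 41 or 42 or vehicle replicate 2 or 4. The falls were 0 without vehicle replicates 5 and 6, where Grb14 had an FDR of 0.0517.

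The circadian clock was the list with the largest share of rises. The clock is a loop in which ARNTL (BMAL1), with CLOCK or NPAS2, drives Per, Cry, Nr1d1, Nr1d2 and Dbp through E-boxes, and the products of Nr1d1 and Nr1d2 repress Arntl, Npas2 and Nfil3 through ROR elements. Of 17 members, 5 rose (Arntl, Npas2, Per1, Cry1 and Nfil3) and 4 fell (Nr1d1, Nr1d2, Dbp and Per3), with a median of -0.02. Nr1d1, which encodes the repressor REV-ERB alpha, lay at 13.2 to 40.9 TPM (median 23.6) in vehicle and 6.99 to 9.53 TPM (median 7.68) in semaglutide (log2 fold change -1.57 ± 0.26 SE, FDR 8.07e-05). Dbp, a transcription factor and output of the clock, lay at 25.1 to 50.4 TPM (median 36.1) and 16.6 to 24.7 TPM (median 20.6), a log2 fold change of -0.88 ± 0.17 (SE, FDR 0.000656). Nfil3, which competes with DBP for its sites, lay at 7.71 to 12.9 TPM (median 10.2) and 13.7 to 64.3 TPM (median 17), a log2 fold change of 1.07 ± 0.24 (SE, FDR 0.00293). The groups of these 3 genes did not overlap. Arntl, Npas2, Per1, Cry1 and Per3 were named after their values were seen.

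**Figure D4:**
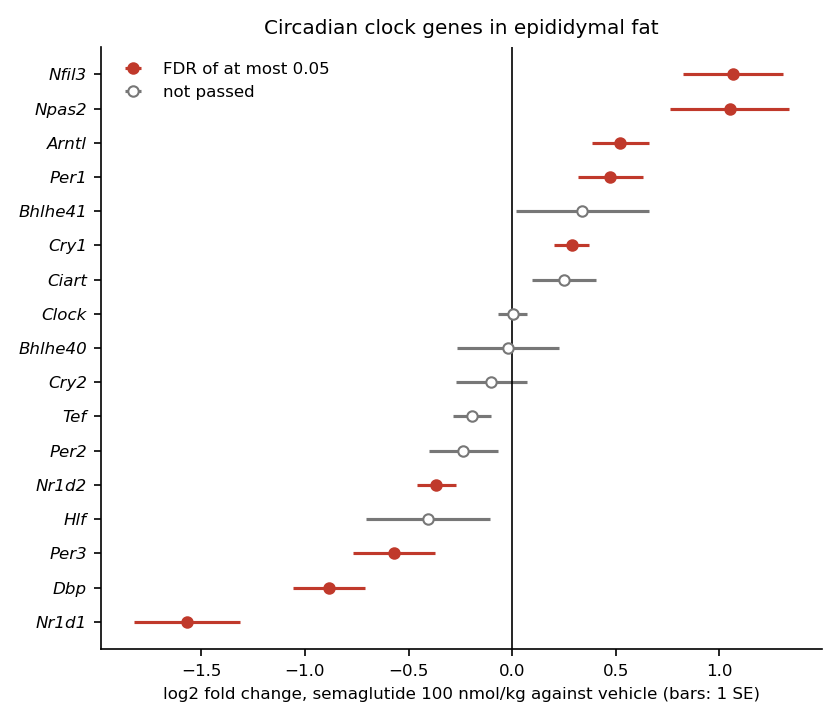
Log2 fold change with 1 SE of the 17 clock genes in eWAT at semaglutide 100 nmol/kg against vehicle (6 libraries each), with filled points for an FDR of at most 0.05. The repressor Nr1d1 lies lowest at -1.57 and Nfil3 and Npas2 highest at 1.07 and 1.05.

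Arntl lay at 6.16 to 9.82 TPM (median 9) in vehicle and 9.72 to 13.8 TPM (median 12) in semaglutide (log2 fold change 0.52 ± 0.14 SE, FDR 0.00971), and Npas2 at 1.09 to 3.89 TPM (median 1.81) and 1.97 to 4.96 TPM (median 4.08), a log2 fold change of 1.05 ± 0.29 (SE, FDR 0.0118). Nr1d2, which encodes REV-ERB beta, lay at 15.8 to 21.6 TPM (median 21.4) and 13 to 18.5 TPM (median 15.5), a log2 fold change of -0.37 ± 0.09 (SE, FDR 0.0076). Per1, Cry1 and Per3 had log2 fold changes of 0.47, 0.29 and -0.57, and their groups overlapped. The rises and falls of the clock list were 3 and 4 without vehicle replicates 1 and 3, where Npas2 and Per1 had FDRs of 0.104 and 0.155. Without vehicle replicates 5 and 6 they were 1 and 2, and Arntl, Npas2, Per1, Cry1, Nr1d2 and Per3 had FDRs of 0.104, 0.0599, 0.06, 0.0715, 0.0818 and 0.319. In a fit of only the 12 libraries they were 1 and 2, and Nfil3, Npas2, Per1, Cry1, Nr1d2 and Per3 had FDRs of 0.104, 0.0723, 0.163, 0.147, 0.0509 and 0.0772. With the hepatocyte covariate they were 1 and 3, and Arntl, Npas2, Per1, Cry1 and Per3 had FDRs of 0.0879, 0.0558, 0.0827, 0.057 and 0.372. Without semaglutide replicate 39 or 41 the rises were 3, as Cry1 and Per1 no longer passed. Per3 failed the FDR in 9 of the 12 fits that left out 1 library (FDR up to 0.144) and Per1 in 8 (up to 0.12). The hour at which each mouse was killed is not given in the labels, and its part in the clock genes was not tested. Exons of Nr1d1 and Dbp overlap Thra and Sphk2 on the other strand over 8.55% and 18% of their bases.

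The promoters of 4 clock genes that changed and of Hmgcs1 are shown because each holds one of the letter strings searched for. Each is 300 bases, from 250 before to 50 after the start site, read 5′ to 3′ on the gene's strand from RefSeq on GRCm38.p6. Capitals mark AGGTCA (the core of a ROR element) in Arntl (chr7:113207261-113207560, plus strand, first base at +32, in 1 of its 2 listed start sites) and in Nr1d2 (chr14:18239057-18239356, minus strand, -77). They mark CACGTG (an E-box) in Per1 (chr11:69098699-69098998, plus strand, -166, in 1 of 2 start sites) and Cry1 (chr10:85185005-85185304, minus strand, -60), and TCACCCCAC (a sterol regulatory element) in Hmgcs1 (chr13:119690101-119690400, plus strand, -137). Only 1 kind of site is marked per gene. Per1 and Hmgcs1 also hold AGGTCA on the other strand, printed as tgacct and left in lower case.
Arntl: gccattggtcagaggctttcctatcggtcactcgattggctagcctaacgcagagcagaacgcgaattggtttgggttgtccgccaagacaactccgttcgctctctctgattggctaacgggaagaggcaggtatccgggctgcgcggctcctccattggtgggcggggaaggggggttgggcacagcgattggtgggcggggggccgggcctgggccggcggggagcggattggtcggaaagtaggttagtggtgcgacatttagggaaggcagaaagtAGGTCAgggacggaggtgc
Nr1d2: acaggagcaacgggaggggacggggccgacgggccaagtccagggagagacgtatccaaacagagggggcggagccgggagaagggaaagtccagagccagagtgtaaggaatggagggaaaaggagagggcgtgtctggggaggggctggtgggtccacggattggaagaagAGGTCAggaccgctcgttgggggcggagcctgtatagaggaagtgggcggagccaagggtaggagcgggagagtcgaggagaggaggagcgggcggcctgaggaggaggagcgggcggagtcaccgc
Per1: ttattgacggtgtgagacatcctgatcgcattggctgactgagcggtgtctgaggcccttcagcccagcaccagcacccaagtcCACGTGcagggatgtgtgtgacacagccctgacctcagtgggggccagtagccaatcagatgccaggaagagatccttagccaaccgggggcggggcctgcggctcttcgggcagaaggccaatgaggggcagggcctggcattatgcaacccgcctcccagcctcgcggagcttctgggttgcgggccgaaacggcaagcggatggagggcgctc
Cry1: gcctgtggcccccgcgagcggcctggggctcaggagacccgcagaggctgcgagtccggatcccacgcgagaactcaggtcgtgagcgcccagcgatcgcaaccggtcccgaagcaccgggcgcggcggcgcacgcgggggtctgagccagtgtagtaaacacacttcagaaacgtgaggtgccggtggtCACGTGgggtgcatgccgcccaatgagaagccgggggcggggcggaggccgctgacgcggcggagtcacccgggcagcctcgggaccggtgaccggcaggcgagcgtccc
Hmgcs1: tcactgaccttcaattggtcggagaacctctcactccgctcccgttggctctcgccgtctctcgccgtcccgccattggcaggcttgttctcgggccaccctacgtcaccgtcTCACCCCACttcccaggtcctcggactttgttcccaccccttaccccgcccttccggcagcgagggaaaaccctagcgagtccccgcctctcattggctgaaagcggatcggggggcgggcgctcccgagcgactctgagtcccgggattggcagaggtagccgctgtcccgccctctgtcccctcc
Searched on both strands, CACGTG was in a window of 5 of 15 clock genes and 5 of 15 cholesterol genes with a listed promoter, against 8.09% of all 27025 genes. The clock genes with it were Bhlhe41, Ciart, Cry1, Per1 and Tef. Nr1d2, named above among the genes driven through E-boxes, had no CACGTG in its window. AGGTCA was in 5 of 15 clock genes and 3 of 15 cholesterol genes, against 18.1% of all genes. TCACCCCAC was in 1 of 15 cholesterol genes against 0.614%. These matches describe the letters in the windows and were not tested for binding.

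Of 19 immediate early and glucocorticoid response genes, 5 rose (Fkbp5, Zbtb16, Sgk1, Mt1 and Cdkn1a) and 2 fell (Fosb and Hsd11b1), with a median of 0.28. Sgk1, a kinase induced by glucocorticoids, lay at 57.5 to 91.8 TPM (median 64.4) in vehicle and 67.9 to 159 TPM (median 105) in semaglutide (log2 fold change 0.63 ± 0.14 SE, FDR 0.00226). Cdkn1a, the cell cycle inhibitor p21, lay at 64.2 to 113 TPM (median 93.6) and 108 to 153 TPM (median 121), a log2 fold change of 0.56 ± 0.15 (SE, FDR 0.00794). Hsd11b1, the enzyme that regenerates active glucocorticoid inside adipocytes, lay at 75.9 to 117 TPM (median 105) and 22.1 to 91.1 TPM (median 55.7), a log2 fold change of -0.91 ± 0.23 (SE, FDR 0.00711), with an FDR of 0.0512 without vehicle replicates 5 and 6. All 3 overlapped between groups. Mt1, a metallothionein, and Fosb, an immediate early transcription factor, had log2 fold changes of 0.68 and -1.63 and each failed the FDR in 8 of the 12 fits that left out 1 library (FDR up to 0.119 and 0.142). The rises were 5 without vehicle replicates 5 and 6 and 4 without vehicle replicates 1 and 3, where Mt1 had an FDR of 0.186. They were 3, and the falls 0, both in a fit of only the 12 libraries and with the hepatocyte covariate. Members outside the 4 smallest p-values of the list were named after their values were seen.

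Few macrophage genes passed the test. Of 22 macrophage markers, 1 rose and 0 fell (median 0.23), and 18 had a fold change above 0. Their summed TPM ran from 6709 to 18914 (median 13247) in vehicle and from 10877 to 19875 (median 14871) in semaglutide. Vehicle replicates 5 and 6 were the lowest of the 12 libraries, at 6709 and 8619 TPM. Members of a list were measured in the same libraries, so counts above 0 are not counts of separate observations. Of 22 lipid-associated macrophage genes, 1 rose and 1 fell (median 0.48), and 20 had a fold change above 0. The fall was Lpl, which is given above among the triglyceride genes. Over all 17852 genes, 5.68% rose, 8.25% fell and the median log2 fold change was 0.02. Folr2, a folate receptor of resident macrophages, lay at 132 to 187 TPM (median 147) in vehicle and 157 to 307 TPM (median 194) in semaglutide (log2 fold change 0.51 ± 0.15 SE, FDR 0.0153), with an FDR of 0.0541 and 0.0592 without semaglutide replicates 40 and 41 and 0.0908 without vehicle replicates 5 and 6. Spp1, which encodes osteopontin, lay at 34.6 to 114 TPM (median 56.2) and 101 to 1213 TPM (median 144), with semaglutide replicate 40 far above the others (log2 fold change 1.82 ± 0.54 SE, FDR 0.0204). Its FDR was 0.0513 to 0.0756 without semaglutide replicate 40 or 41 or vehicle replicate 5 and 0.1 without vehicle replicates 5 and 6. Cd68, Trem2 and Itgax, a pan-macrophage marker, a lipid receptor of lipid-associated macrophages and the integrin CD11c, had log2 fold changes of 0.59, 0.55 and 0.21 with FDRs of 0.121, 0.224 and 0.713. Cd68 lay at 530.0 to 1258 TPM (median 862) in vehicle and 1051 to 1514 TPM (median 1300.0) in semaglutide, and Itgax turned negative (-0.01) without vehicle replicates 5 and 6. The lipid-associated macrophage genes that rose numbered 5 without vehicle replicate 4, 3 without semaglutide replicate 38, and 0 without vehicle replicate 5 or semaglutide replicate 41. The macrophage markers that rose numbered 2 without semaglutide replicate 38 or vehicle replicate 5.

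Some genes of antigen presentation and of the interferon response fell, and their counts changed with the lymphocyte-rich vehicle libraries. Of 19 antigen presentation genes, 5 fell (B2m, H2-K1, Tapbp, H2-DMb1 and Ciita), 0 rose and 14 did not pass (median -0.50). Of 20 interferon-stimulated genes, 6 fell, 0 rose and 14 did not pass (median -0.23). B2m, the light chain of MHC class I, lay at 2737 to 5752 TPM (median 3152) in vehicle and 2112 to 2521 TPM (median 2267) in semaglutide, without overlap (log2 fold change -0.64 ± 0.13 SE, FDR 0.000865). H2-K1, a class I heavy chain that shares sequence with other H2 genes, lay at 1352 to 3815 TPM (median 1395) and 1052 to 1177 TPM (median 1109), a log2 fold change of -0.73 ± 0.18 (SE, FDR 0.0066). Gbp2, an interferon-induced GTPase, lay at 39.4 to 303 TPM (median 50.0) and 27.2 to 37.8 TPM (median 34.7), a log2 fold change of -1.19 ± 0.33 (SE, FDR 0.0124). Neither of these overlapped between groups, and in both the highest values were those of vehicle replicates 1 and 3. Without these 2 replicates the interferon list had 2 rises and 0 falls (median 0.10) and the antigen presentation list 2 falls, and H2-K1, Gbp2 and Cxcl10 had FDRs of 0.138, 0.228 and 0.198. The interferon falls were 2 without vehicle replicate 1 or 3 or semaglutide replicate 37 and 3 without semaglutide replicate 39 or 41. The antigen presentation falls were 8 without semaglutide replicate 40 and 11 without vehicle replicates 5 and 6. In a fit of only the 12 libraries, 0 antigen presentation genes and 1 interferon-stimulated gene fell, and with the hepatocyte covariate 3 of the latter fell. Of 22 lymphocyte markers 1 fell (median -0.60), Cd2 (log2 fold change -0.91 ± 0.28 SE, FDR 0.0234), with an FDR of 0.0534 to 0.06 without semaglutide replicate 41 or vehicle replicate 1 or 3. Without vehicle replicates 1 and 3 together 1 of them rose and 0 fell, and without vehicle replicates 5 and 6 together 7 fell. The part of the lymphocyte markers in these falls was not tested.

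Nos2, the inducible nitric oxide synthase, fell from a median of 5.95 TPM (range 5.44 to 14) in vehicle to a median of 3.35 TPM (range 2.11 to 5.12) in semaglutide without overlap (log2 fold change -1.08 ± 0.24 SE, FDR 0.00249). It was 1 of 2 falls among 23 cytokines and chemokines, the other being Cxcl10 (log2 fold change -2.38 ± 0.76 SE, FDR 0.0303), an interferon-induced chemokine whose FDR was 0.0537 to 0.0744 without any one of semaglutide replicates 37, 39 and 41 and vehicle replicates 1 and 3. Ccl9, a macrophage chemokine, was the 1 rise (log2 fold change 0.69 ± 0.22 SE, FDR 0.0297), and its FDR was 0.0544 to 0.0884 without semaglutide replicate 40 or 41 or vehicle replicate 5 or 6 and 0.159 without both of the latter. Over all genes 8.25% fell and 5.68% rose, so the counts of this list lay near those shares. The list's rises ranged from 0 to 4 and its falls from 1 to 5 on leaving out single libraries, with 4 rises without semaglutide replicate 38 and 5 falls without semaglutide replicate 40.

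Of 28 matrix remodelling and fibrosis genes, 3 rose and 2 fell (median 0.24), and of 19 collagens, 1 rose and 4 fell (median -0.29), where 5.68% of all genes rose and 8.25% fell. Sparc, a secreted collagen-binding protein, lay at 1983 to 4071 TPM (median 2551) in vehicle and 875 to 2020.2 TPM (median 1457) in semaglutide (log2 fold change -1.01 ± 0.19 SE, FDR 0.000456). Mmp14, a membrane-bound collagenase, lay at 81.7 to 162.7 TPM (median 102) and 149 to 202 TPM (median 180.2), a log2 fold change of 0.72 ± 0.15 (SE, FDR 0.00159), and Timp2, its partner and an inhibitor of metalloproteinases, at 589 to 804 TPM (median 664) and 725 to 1104 TPM (median 884), a log2 fold change of 0.38 ± 0.10 (SE, FDR 0.00805). All 3 overlapped slightly. Thbs2, which encodes thrombospondin-2, rose without overlap (log2 fold change 0.86 ± 0.25 SE, FDR 0.0171), but its FDR was 0.0738 without vehicle replicate 3 and 0.171 without vehicle replicates 1 and 3. That of Timp2 was 0.0522 without vehicle replicates 5 and 6. Serpinh1, a collagen chaperone, had a log2 fold change of -0.53 and failed the FDR without any one of semaglutide replicates 39, 41 and 42 and vehicle replicates 2, 5 and 6 (FDR 0.0628 to 0.165). The falls of the matrix list were 5 without semaglutide replicate 40.

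Col15a1, a basement membrane collagen, lay at 195 to 271 TPM (median 229) in vehicle and 63 to 186 TPM (median 175) in semaglutide, without overlap (log2 fold change -0.81 ± 0.22 SE, FDR 0.0119), and its FDR was 0.0531 without semaglutide replicate 39 and 0.0831 without vehicle replicates 5 and 6. The other falls among collagens were Col4a2, Col12a1 and Col16a1, with log2 fold changes of -0.51, -0.98 and -0.89, and the rise was Col6a5 (0.92). The collagen falls were 1 without semaglutide replicate 39, 8 without vehicle replicates 1 and 3, 0 without vehicle replicates 5 and 6 and 0 in a fit of only the 12 libraries, and the rise was lost without semaglutide replicate 39, 40 or 41 or vehicle replicate 1 or 6. Col1a1 and Col6a3, of fibrillar and microfibrillar collagen, had log2 fold changes of 0.46 and -0.18 with FDRs of 0.437 and 0.676. Of 15 adipose progenitor markers, Anxa3 rose (log2 fold change 0.38 ± 0.08 SE, FDR 0.00174) and Sema3c (log2 fold change -0.97 ± 0.21 SE, FDR 0.00161), Zfp423 and Cd55 fell, the latter pair with log2 fold changes of -0.82 and -0.39 and FDRs of 0.138 and 0.0956 without vehicle replicates 5 and 6.

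The lower semaglutide dose gave fewer genes past the FDR against vehicle, and in the direct test no gene separated the doses. In the comparison of semaglutide 100 with 20 nmol/kg, 0 of 17852 genes passed the FDR (limma/voom, lowest FDR 0.969), 687 had an unadjusted p under 0.05 (3.85%), edgeR's quasi-likelihood test called 0 and DESeq2 called 5. Against vehicle, 643 genes fell (3.6%) and 333 rose (1.87%) at 20 nmol/kg, of which 193 (1.08%) and 55 (0.308%) were called, and 3469 (19.4%) had an unadjusted p under 0.05. Of the genes called at 100 nmol/kg, 215 of the 395 lower and 53 of the 129 higher passed the FDR at 20 nmol/kg. Both doses were compared with the same 6 vehicle libraries, so their values are given side by side without a test of likeness. Lep had a log2 fold change of -1.81 (FDR 0.00842) at 20 nmol/kg and -2.65 at 100 nmol/kg, and the difference between doses was -0.84 ± 0.37 (SE). For Oxtr the values were -3.27 (FDR 1.83e-05) and -4.54 (difference -1.27 ± 0.57 (SE)), and for Dgat2 -1.64 (FDR 0.00839) and -2.48 (difference -0.84 ± 0.33 (SE)). These intervals do not show that the doses act alike. Fkbp5 and Zbtb16 had 1.57 (FDR 0.0172) and 1.61 (FDR 0.0177) at the lower dose, close to their values at the higher dose.

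BI 456906 at 30 nmol/kg, another compound at another dose, gave more genes past the FDR, with 2066 lower (11.6%) and 2004 higher (11.2%) than the same vehicle libraries at the FDR of 0.05. Of these 433 (2.43%) and 418 (2.34%) were called, and 6290 genes (35.2%) had an unadjusted p under 0.05. Mest had -4.31 (FDR 1.27e-05) there and -3.93 with semaglutide 100 nmol/kg, Lep -1.90 (FDR 0.00165) and -2.65, and Fkbp5 2.26 (FDR 0.000345) and 1.59. In the direct comparison of the 2 groups, 2 of 17852 genes passed the FDR (0.0112%), both lower in semaglutide. Tent5b, a poly(A) polymerase, lay at 1.81 to 3.51 TPM (median 2.17) with semaglutide and 4.67 to 8.09 TPM (median 6.83) with BI 456906, a difference (semaglutide minus BI 456906) of -1.38 ± 0.24 (SE). Dusp18, a dual-specificity phosphatase, lay at 2.89 to 4.93 TPM (median 4.03) and 5.2 to 6.81 TPM (median 6.09), a difference of -0.57 ± 0.10 (SE). In this comparison 1052 genes had an FDR of at most 0.1 and 4537 (25.4%) an unadjusted p under 0.05. The genes called numbered 1 (0.0056%), against 107 with the quasi-likelihood test of edgeR and 175 with DESeq2. They numbered 258 without BI 456906 replicate 29, 188 and 104 without semaglutide replicates 39 and 38, and 0 without BI 456906 replicate 27 or semaglutide replicate 37, 40 or 41.

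**Figure D5:**
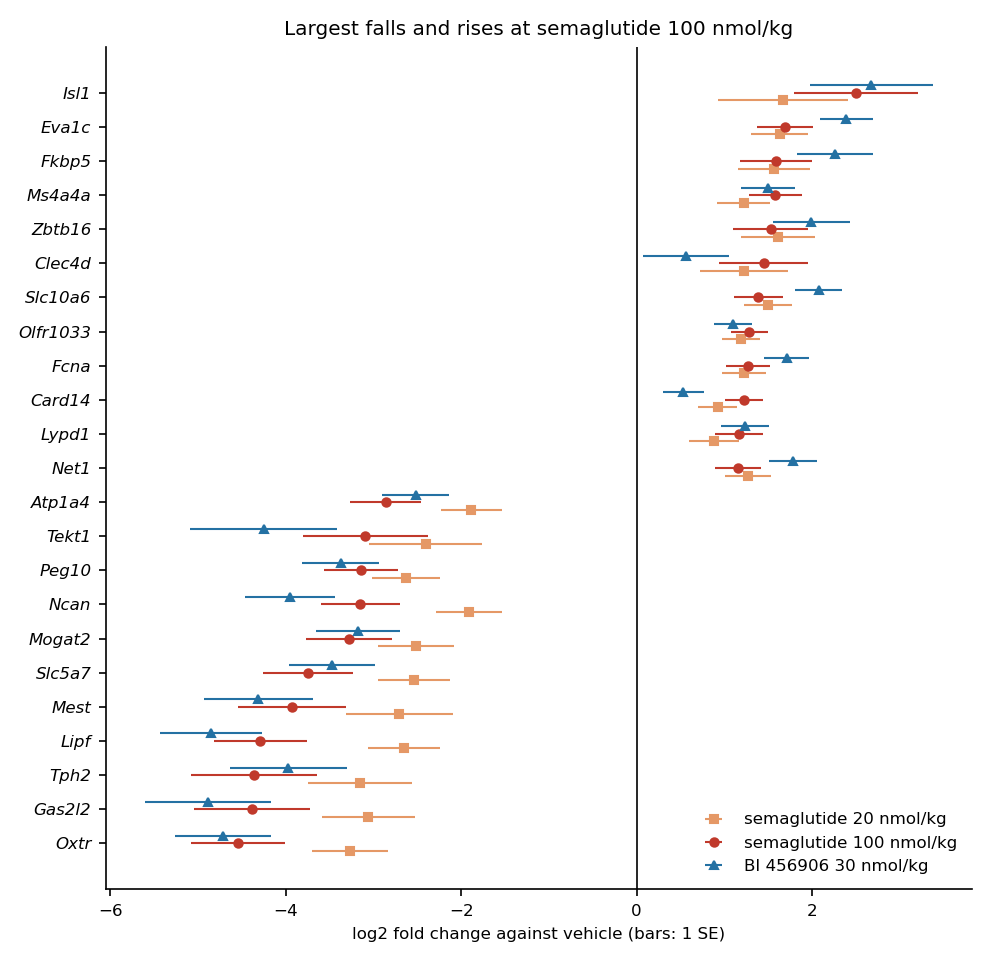
Log2 fold change against the shared vehicle group, with 1 SE, of 11 of the 12 largest falls and the 12 largest rises at semaglutide 100 nmol/kg, for semaglutide 20 nmol/kg, semaglutide 100 nmol/kg and BI 456906 30 nmol/kg (6 libraries each). The genes were chosen on the semaglutide 100 nmol/kg values, and Oxtr, for example, lies at -4.54 there, -3.27 at 20 nmol/kg and -4.72 with BI 456906.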

How the data were processed

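RNA of eWAT was sequenced in 42 mice (7 groups of 6) and RNA of liver in 42, and 12 eWAT libraries were compared here. The authors deposited 2 tables per tissue with 48794 Ensembl genes each. GENCODE M21 on GRCm38 gave a symbol for 48434 of these. In the read table the deposited values are a scaled signal, that is, gene counts divided by 1 factor per library, and every value was a whole multiple (within 0.001) of its library's step of 0.868 to 1.24, so that 100.0% came out as whole reads. The deposited TPM, made by the authors, gave expression levels, and the liver TPM was used only to set aside genes. The submitters' processing notes name STAR 2.5.2b, RSEM 1.3.0, featureCounts 1.5.1 and FastQC 0.11.5. The labels describe single reads from a low-input kit and the study's methods paired reads of poly(A)-selected strand-specific libraries, and which holds for eWAT was not settled.

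The scaled signal was fitted with limma/voom (limma 3.58.1 with edgeR 4.0.16 under R 4.3.3) over all 42 eWAT libraries, with TMM normalization, genes kept by filterByExpr (18536) and a pseudocount of 0.5, as the study's methods name this tool, and checked on simulated data. FDRs are Benjamini-Hochberg values over all 18536 genes. Liver genes were set aside afterwards, and members of gene lists that were set aside are not counted, except among the hepatocyte markers. Called genes had a log2 fold change of at least 1 in size and an FDR of at most 0.05.

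Named genes were the 12 largest rises and 12 largest falls among called genes with non-overlapping groups and a mean of at least 1 TPM in either group (no predicted models or antigen receptor segments), up to 4 members of each of 32 gene lists by smallest p (all that passed where 5 or fewer did), 17 fixed genes and the genes called between treatments. A few members are not reported here. The members and lists were chosen with earlier results of these data known. Each library came from 1 mouse, caged alone per the study's methods, and p-values measure the spread between these mice. No 2 libraries of a group were copies (lowest chi-square per degree of freedom 30.0). Alternatives were other scaling, filters and tools (DESeq2 1.42.0, edgeR's quasi-likelihood test on the recovered reads), limma on log2(TPM + 0.1) and log2(TPM + 1), sample quality weights, a fit of the 12 libraries alone, a hepatocyte marker covariate and each library left out. Leaving out vehicle replicates 1 and 3 or 5 and 6, and a macrophage marker covariate, were added after the data were seen.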

Additional observations from a re-analysis of the deposited data

Results flagged for a closer look

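Of 224 groups of 6 libraries (108 genes in 2 treatments, and marker sums), 19 held a library whose gap to the nearest other exceeded Dixon's 95% critical share of the group's range, where chance gives about 1 in 20 groups. In semaglutide replicate 38 the highest value of the group stood apart for 7 genes that had fallen, at 1.20 TPM for Lipf, 87.8 TPM for Mest, 207 TPM for Trarg1, 172 TPM for Fasn, 63.3 TPM for Hmgcs1, 266 TPM for G0s2 and 7.68 TPM for Gipr. This library also had the highest adipocyte marker sum of its group (45063 TPM). In semaglutide replicate 39 the highest value stood apart for 3 genes that had risen, at 188 TPM for Fkbp5, 22.2 TPM for Slc10a6 and 215 TPM for Net1. In semaglutide replicate 40, with the lowest adipocyte sum, it did for Nfil3 (64.3 TPM), Fosb (8.86 TPM), Spp1 (1213 TPM) and Col1a1 (1008 TPM).

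Among vehicle libraries, replicate 6 was high for Fkbp5 (64 TPM), replicate 2 for Cry1 (16.4 TPM), replicate 5 for Fosb (14 TPM) and replicate 3 for Nos2 (14 TPM), and replicate 3 was low for Nr1d2 (15.8 TPM).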

How the results depend on the processing

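No paired analysis was possible because the library numbers differ in each group. Of the genes named that passed, the direction held in every alternative. For semaglutide 100 nmol/kg against vehicle, genes called higher (129) numbered 206 with DESeq2, 196 with the quasi-likelihood test of edgeR, 70 with at least 10 reads in every library, 22 on log2(TPM + 1), 50 with only the 12 libraries, 249 and 237 with the hepatocyte and macrophage covariates, 69 without vehicle replicates 5 and 6, 1014 by FDR alone and 81 to 206 on leaving out single libraries. Genes called lower (395) numbered 249, 170, 262 and 252 with at least 10 reads, log2(TPM + 1), only the 12 libraries and the hepatocyte covariate, 1473 by FDR alone and 296 to 485 without single libraries. The share called higher was 24.6%, against 49.7% with the hepatocyte covariate, 11.5% on log2(TPM + 1) and 14.3% without vehicle replicates 1 and 3. Against semaglutide 20 nmol/kg, 5 genes (main 0) were called with DESeq2. Against BI 456906 30 nmol/kg (main 1) they numbered 175 with DESeq2, 107 with quasi-likelihood, 4 with RLE factors, 32 by library size alone, 62 with at least 10 reads, 2 without a filter, 13 and 3 on log2(TPM + 0.1) and log2(TPM + 1), 30 with liver genes removed first, 563 with sample quality weights, 137 and 0 with the hepatocyte and macrophage covariates, 35 without vehicle replicates 5 and 6, 2 by FDR alone and 0 to 258 without single libraries. The log2 change of the hepatocyte sum was -1.28, of Alb alone -3.39 (exact permutation p = 0.0584), and of the sum -1.63 to -0.979 without single libraries.

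Of 96 named genes that passed the FDR, 48 stayed past it under every alternative and every left-out library. Among values of single genes, 1651 of 1824 kept direction and side of the threshold, 164 no longer passed the FDR and 8 turned. Of 1296 values without 1 library, 1160 kept both, 128 no longer passed and 8 turned. Those that turned had never passed. Ucp1 was at 0.0596, 0.0679 and 0.0219 with DESeq2, quasi-likelihood and the macrophage covariate and at -0.884 to 0.185 without single libraries. Itgax was at -0.0685 and -0.0543 with the hepatocyte and macrophage covariates and at -0.00666 without vehicle replicates 5 and 6. Pparg was at -0.0562 without vehicle replicates 1 and 3 and at -0.0758 to 0.107 without single libraries, Col6a3 at -0.277 to 0.0600 without single libraries, and Tent5b at -0.0146 without vehicle replicates 1 and 3. The causes were not tested. With the hepatocyte covariate, falls numbered 8 of 18 in lipogenesis, 5 of 22 in cholesterol synthesis and 0 of 20 in adipocyte identity, and clock rises and falls 1 and 3. At this depth, genes under 1 TPM rest on few reads.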
